A study of Macaca mulatta with 8 samples.

Results

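PDCD1, LAG3, TIGIT, CTLA4 and HAVCR2, which encode inhibitory receptors of T cells, were described together with the chemokine gene CXCL13, the transcription factor gene TOX and the PD-1 ligand genes CD274 and PDCD1LG2. These 9 genes were taken by symbol from the 26533 features counted in 8 single-cell libraries of macaque retina, and all 9 were found. They were picked with their UMI counts and shares of positive T cells, and the levels of the ligand genes in myeloid cells, glia and neurons, already known in these libraries. The levels of all 9 in T cells and of CD274 and PDCD1LG2 in the other classes are therefore given as a description, without a test. A UMI is a molecular tag that marks 1 captured RNA molecule.

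Inhibitory receptors are displayed by T cells after they meet antigen, and binding of PD-1 (the product of PDCD1) by PD-L1 (CD274) or PD-L2 (PDCD1LG2) dampens signalling from the T cell receptor. Lasting exposure to antigen keeps several of these receptors on a T cell together with TOX, and helper T cells of inflamed tissue can also secrete CXCL13, which draws B cells through the receptor CXCR5. The retina normally holds few T cells, and its resident immune cells are microglia.

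Retina of 2 wild-type male animals, NHP1 aged 5 years and NHP2 aged 6 years, was sampled in both eyes after subretinal injection of AAV vectors. All eyes were given subtenon triamcinolone, a corticosteroid, and each left eye was also given repeated intravitreal adalimumab, an antibody to TNF, so that eye side and adalimumab cannot be told apart. From each eye of NHP2 there was a library of the bleb injected with AAV8-GRK1-hRPGR (codon-optimised human RPGR), a library of the bleb injected with AAV8-GRK1-mScarlet (a red fluorescent reporter) and a library of uninjected retina; GRK1 is a photoreceptor promoter. Per the paper the mScarlet bleb received a lower vector dose, of a laboratory-grade preparation, while the hRPGR vector was of engineering grade. Transgene, dose and preparation therefore cannot be told apart between the blebs. The paper also describes subretinal infiltrates and outer retinal atrophy with the mScarlet vector. NHP1 had received AAV2-CAG-hRPE65 (CAG is a ubiquitous promoter), and only the libraries labelled as uninjected retina of its eyes were analysed here. A group was therefore 2 areas, the right and the left eye of a single animal, and the p-values below measure the spread between those areas and not between animals.

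The 8 libraries held 90634306 to 146519011 UMIs, and pairs of libraries shared 1.39 to 2.16% of the cell barcodes of the smaller library. After filtering, 83192 cells were analysed. The label of 2 uninjected libraries did not match their transgene content. The left NHP1 library labelled uninjected held 28201 huRPE65 UMIs (351 CPM, or UMIs of the gene per 1000000 UMIs), and the right NHP2 library labelled uninjected held 8347 coRPGR UMIs (133 CPM, against 3249 and 933 CPM in the right and left hRPGR blebs). The left NHP2 uninjected library held 0 coRPGR UMIs. The right and left mScarlet blebs held 193 and 131 mScarlet CPM, and the right mScarlet bleb also held 17.4 coRPGR CPM. Where leaving out the right NHP2 uninjected library changed a call or turned a direction, the value without it is given beside the result.

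T cells formed 1 cluster of 908 cells, found without using the 9 genes and named T/NK-like from fixed markers. In the 6 NHP2 libraries its cells carried 846 to 1355 CPM of CD3D and 763 to 1000 CPM of CD3E, which encode CD3 chains of the T cell receptor, with 0 to 3.04 CPM of the B cell gene MS4A1 and 0 to 19.1 CPM of the microglial gene C1QB. The cluster held 24 and 34 cells in the right and left uninjected areas of NHP2 (0.256 and 0.311% of all cells), 102 and 32 in the hRPGR areas (0.898 and 0.344%), and 236 and 432 in the mScarlet areas (2.67 and 4.21%). Of cells of any class with at least 2 UMIs of CD3 genes, the cluster held 24 of 61 and 32 of 132 in the right and left uninjected areas, 100 of 198 and 30 of 73 in the hRPGR areas and 232 of 287 and 427 of 536 in the mScarlet areas, so that by CD3 UMIs alone the areas differed less than by the cluster; in the uninjected areas 14 and 48 of such cells were in rod-like clusters. NHP1 gave 2 cells in the right and 46 in the left library, and the right one is given no level. Depth of T/NK-like cells differed between areas, with medians of 3538.5 and 3664.5 UMIs in the right and left uninjected areas of NHP2. The medians were 3673.5 and 4612 UMIs in the hRPGR areas and 4913 and 4422.5 UMIs in the mScarlet areas. Both mScarlet areas were thus deeper than both uninjected areas. A rod-like cell of NHP2 held a median of 4570 to 6276 UMIs. RNA of other cells also reached the T/NK-like cells: the summed level of 8 rod markers was 1531 and 5282 CPM in the right and left uninjected areas, 3311 and 676 CPM in the hRPGR blebs and 615 and 943 CPM in the mScarlet blebs, and that of 11 myeloid markers was 642 to 1611 CPM.

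Of the 9 genes, 8 were higher in T/NK-like cells of both mScarlet blebs than in those of both uninjected areas, the exception being HAVCR2. Among all 11426 genes with at least 10 UMIs in these cells, 28.4% showed the same order. Both hRPGR blebs were above both uninjected areas for 5 genes (PDCD1, CXCL13, TIGIT, CTLA4 and TOX), against 19.8% of all genes. Both mScarlet blebs were above both hRPGR blebs for 4 genes (PDCD1, LAG3, HAVCR2 and CD274), against 18.6% of all genes. HAVCR2 fell outside the first count through the right uninjected library. CD274 and PDCD1LG2 were sparse in these cells. In mScarlet T/NK-like cells gated on 2 UMIs of CD8 or of CD4, CD274 was at 12.2 and 14.2 CPM. PDCD1LG2 was there at 13.6 and 8.86 CPM. These levels are below what 3 UMIs would give in either uninjected area, so the uninjected sums were too shallow to measure their order. Since the genes were chosen on these cells, nothing further is read from these counts.

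PDCD1 was measured at 23.0 CPM in the right and 113 CPM in the left uninjected area of NHP2 (2 and 15 UMIs). The hRPGR blebs gave 174 and 150 CPM, the mScarlet blebs 269 and 241 CPM, and the left uninjected library of NHP1 140 CPM. Over all cells with at least 2 CD3 UMIs, in or out of the cluster, PDCD1 was at 4.55 and 12.8 CPM, 40.4 and 39.3 CPM, and 181 and 131 CPM in the same order of areas. The 3 areas of NHP2 did not overlap in either set, while in the cluster NHP1 lay above both uninjected areas of NHP2 and below the hRPGR blebs. After each cell was thinned to 1500 UMIs, so that depth no longer differed, 4.17 and 14.7% of T/NK-like cells of the uninjected areas, 18.6 and 12.5% of the hRPGR blebs and 26.7 and 20.6% of the mScarlet blebs held a PDCD1 UMI. The exact 95% intervals were 0.105 to 21.1% and 4.95 to 31.1% in the right and left uninjected areas. In the mScarlet blebs they were 21.2 to 32.8% and 16.9 to 24.7%. Those of the right uninjected area and the right mScarlet bleb just failed to overlap, and the other pairs overlapped. Like all intervals here they cover counting error only. Without thinning the mScarlet shares were 50.0 and 43.1%, at median depths of 4913 and 4422 UMIs. Of rod-like cells, which should lack the gene, at most 0.0297% held a UMI after thinning.

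LAG3, whose product binds MHC class II, separated the mScarlet blebs from every other area. Its level was 57.6 and 45.3 CPM in the uninjected areas, 47.7 and 46.2 CPM in the hRPGR blebs, and 144 and 185 CPM in the mScarlet blebs. The left library of NHP1 gave 16.8 CPM. The hRPGR blebs lay inside the range of the uninjected areas. The thinned share of positive cells was 12.5 and 2.94% in the uninjected areas (3 and 1 cells), 6.86 and 6.25% in the hRPGR areas, and 14.4 and 18.3% in the mScarlet areas, so that the right uninjected and right mScarlet shares were close. Rod-like cells of NHP2 gave 0.101 to 0.305%. The CD8 gene CD8A was at 368 and 189 CPM in T/NK-like cells of the uninjected areas. It was at 105 and 139 CPM in the hRPGR and 282 and 303 CPM in the mScarlet blebs. LAG3 was more often found in CD8-gated cells (below), and the part of the CD8 share in the LAG3 levels was not tested.

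TIGIT and CTLA4, receptors that compete with CD226 and CD28 for their ligands, were higher in both injected areas. TIGIT was at 380 and 423 CPM in the uninjected areas, 754 and 733 CPM in the hRPGR blebs and 669 and 744 CPM in the mScarlet blebs, and NHP1 gave 291 CPM. CTLA4 was at 127 and 144 CPM in the uninjected areas, 348 and 277 CPM in the hRPGR blebs and 336 and 343 CPM in the mScarlet blebs, and NHP1 gave 134 CPM. For both genes the 2 kinds of bleb overlapped and both lay above the uninjected areas. Both genes also differed between CD8-gated and CD4-gated cells (below), and the part of the CD8 and CD4 shares in these levels was not tested. The thinned shares separated less: TIGIT was found in 37.5 and 29.4% of cells of the uninjected areas, 42.2 and 34.4% of the hRPGR blebs and 44.1 and 51.2% of the mScarlet blebs. CTLA4 was found in 12.5 and 14.7%, 33.3 and 18.8%, and 28.0 and 32.2%, in the same order, and rod-like cells gave at most 0.0404% for TIGIT and 0.0355% for CTLA4.

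HAVCR2 (TIM-3) was sparse in T/NK-like cells. It was at 34.5 and 0 CPM in the uninjected areas (3 and 0 UMIs), 14.3 and 0 CPM in the hRPGR blebs and 31.2 and 22.3 CPM in the mScarlet blebs, and the areas overlapped. TOX, a nuclear factor of chronically stimulated T cells, was at 380 and 416 CPM in the uninjected areas, 663 and 722 CPM in the hRPGR blebs and 696 and 684 CPM in the mScarlet blebs, and at 398 CPM in NHP1. The blebs overlapped each other and lay above the uninjected areas. A TOX UMI was left after thinning in 45.8 and 35.3% of cells of the uninjected areas, 51.0 and 59.4% of the hRPGR blebs and 59.3 and 58.1% of the mScarlet blebs.

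**Figure D1:**
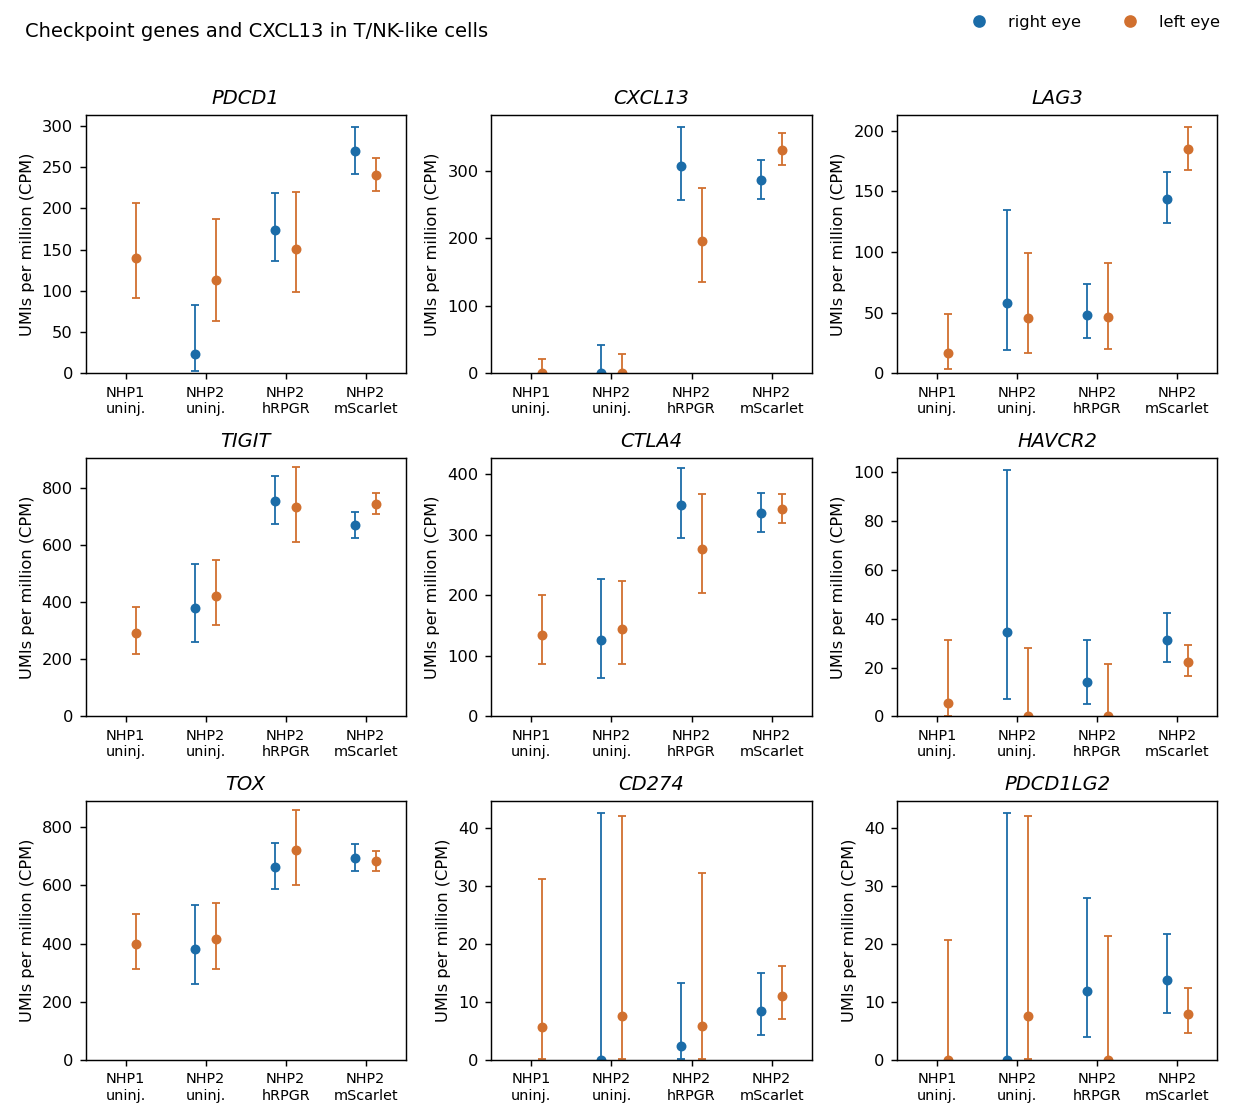
Level of each of the 9 genes in T/NK-like cells, in CPM of these cells (y axis), by animal and area (x axis); each point is 1 library, coloured by eye, with its exact 95% Poisson interval for counting error. The right NHP1 library is left out because it held 2 such cells, and CXCL13 is at 0 in every uninjected library shown while the blebs sit between 196 and 332 CPM.

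More than 1 receptor was often found in the same cell. After thinning, at least 2 of the 5 receptor genes were found in 16.7 and 11.8% of T/NK-like cells of the uninjected areas, 30.4 and 21.9% of the hRPGR blebs and 34.7 and 37.3% of the mScarlet blebs. At least 3 were found in 0 and 2.94%, 6.86 and 3.12%, and 11.02 and 12.3% of cells, in the same order. Without thinning the share with at least 2 was 50.0 and 35.3%, 52.9 and 43.8%, and 67.8 and 67.1%, so that the right uninjected area then lay within the range of the hRPGR blebs.

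Among the 802 T/NK-like cells of the injected areas, those with and without PDCD1 differed in other genes as well. The 354 cells with a PDCD1 UMI were deeper (median 5141 UMIs) than the 448 without (4019 UMIs), so the shares below are not at equal depth. LAG3 was found in 41.5% (95% interval 36.3 to 46.9%) of cells with PDCD1 and 20.8% (17.1 to 24.8%) of cells without, CTLA4 in 67.8 and 40.6%, HAVCR2 in 16.4 and 5.13%, and the cell division gene MKI67 in 16.9 and 5.36%. In the direction opposite to depth, GZMK, a granzyme of memory-like CD8 T cells, was found in 37.0% of cells with PDCD1 and 62.3% of cells without, and the interleukin-7 receptor gene IL7R in 15.3 and 31.7%. Beside CXCL13, the genes with the largest ratio of summed level in cells with PDCD1 over cells without, among 2147 genes and higher in each of the 3 libraries with at least 20 cells on both sides, were MXD3 (20.2-fold, from 47 and 2 UMIs, with a counting interval of 5.29 to 172), CTTN (13.97-fold, 65 and 4 UMIs), ENOX1 (13.3-fold, 31 and 2 UMIs, 3.39 to 115), TNFSF11 (13.3-fold, 170 and 11 UMIs), DOK5 (12.9-fold, 45 and 3 UMIs, 4.14 to 64.9), POC1A (12.6-fold, 44 and 3 UMIs, 4.04 to 63.5), SULF2 (10.5-fold), NXN (10.3-fold) and TROAP (10.03-fold, 35 and 3 UMIs, 3.16 to 51.0). TNFSF11 encodes the cytokine RANKL, and TROAP is a gene of the mitotic spindle.

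Some of the receptors differed between CD8 and CD4 T cells. In the injected areas 339 T/NK-like cells held a UMI of CD8A or CD8B and none of CD4, 211 held CD4 and neither CD8 gene, 244 held none of the 3 and 8 held both kinds; median depth was 4640 UMIs in the CD8 and 4807 UMIs in the CD4 gate. LAG3 was found in 26.3% (21.6 to 31.3%) of thinned CD8-gated cells and 7.58% (4.40 to 12.02%) of CD4-gated cells, and its CPM was higher in the CD8 gate of each of the 4 libraries. CTLA4 showed the opposite order, with 15.04% (11.4 to 19.3%) of CD8-gated and 51.2% (44.2 to 58.1%) of CD4-gated cells, as did TIGIT with 43.1 and 61.1%, and both were higher by CPM in the CD4 gate of each library. PDCD1 was found in 20.6 and 24.6% of CD8-gated and CD4-gated cells, with overlapping intervals, and TOX in 53.7 and 62.1%. HAVCR2 was at 43.1 CPM in the CD8 gate and 10.3 CPM in the CD4 gate (79 and 13 UMIs). With a stricter gate of 2 UMIs, TIGIT was found in 46.1% (39.8 to 52.6%) of CD8-gated and 56.5% (45.8 to 66.8%) of CD4-gated cells. These TIGIT intervals overlapped, while those of LAG3 and of CTLA4 stayed apart under the stricter gate.

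CXCL13 was concentrated in a few CD4-gated cells. It was at 0 UMIs in T/NK-like cells of both uninjected areas of NHP2 and of the left NHP1 library, where 3 UMIs would have been 34.5, 22.7 and 16.8 CPM, and at 308 and 196 CPM in the hRPGR blebs and 286 and 332 CPM in the mScarlet blebs (129, 34, 376 and 758 UMIs). These UMIs came from 2, 2, 7 and 16 cells. In the right hRPGR bleb 1 cell held 124 of the 129 UMIs (96.1%) and in the left 1 cell held 31 of 34 (91.2%), so that the levels of these blebs each rest on a single cell. In the mScarlet blebs the top cell held 26.9 and 37.3% of the UMIs. A CD4 UMI was found in 23 of the 27 cells, and all 27 held a CD3 and a PDCD1 UMI. After thinning, 1 of the 339 CD8-gated cells (0.295%) and 7.58% of the 211 CD4-gated cells held CXCL13, against at most 0.0355% of rod-like cells.

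Because cells with CXCL13 were deep (median 8225 UMIs, against 4423 UMIs in T/NK-like cells without), shares were also taken among cells of at least 5000 UMIs, a limit chosen after the data were seen. PDCD1 was found in 24 of 24 such cells with CXCL13 (95% interval 85.8 to 100%) and 163 of 276 without (59.1%, 53.0 to 64.9%), at median depths of 8912 and 6170 UMIs. The CD4 gate of this paragraph took cells with CD4 and no CD8A, and unlike the gate above it did not look at CD8B. Within this CD4 gate PDCD1 was found in 19 of 19 with (82.4 to 100%) and 50 of 80 without (62.5%, 51.0 to 73.1%). IL21, a cytokine gene of B cell helper T cells, was found in 62.5% (40.6 to 81.2%) of the deep cells with CXCL13 and 14.5% (10.6 to 19.2%) without, and within the CD4 gate in 68.4 and 33.8%, where the intervals overlapped. LAG3 was found in 45.8 and 46.7% of deep cells with and without CXCL13, in 36.8 and 31.2% within the CD4 gate and in 48.1 and 29.3% over all depths, and the intervals overlapped in each of the 3 sets. FOXP3, the regulatory T cell factor, and the granzyme genes GZMK and GZMB were found in 0 of the 24 cells (interval up to 14.2%), against 13.0, 34.4 and 48.9% of the 276, which include CD8 T cells. Within the CD4 gate they were found in 0 of 19 cells (interval up to 17.6%), against 32.5% (22.4 to 43.9%) for FOXP3, 11.2% (5.28 to 20.3%) for GZMK and 13.8% (7.07 to 23.3%) for GZMB in the 80 others, so that only the FOXP3 intervals did not overlap. CXCR5, the receptor for CXCL13, was found in 20.8 and 10.9%, with overlapping intervals. By the same ratio, but with no library that had 20 such cells to check the direction in, the leading genes of the cells with CXCL13 included IL2, whose 84 UMIs came from 2 of them, IGFBP4 (39.99-fold), ENOX1 (29.99-fold) and DOK5 (13.8-fold).

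**Figure D2:**
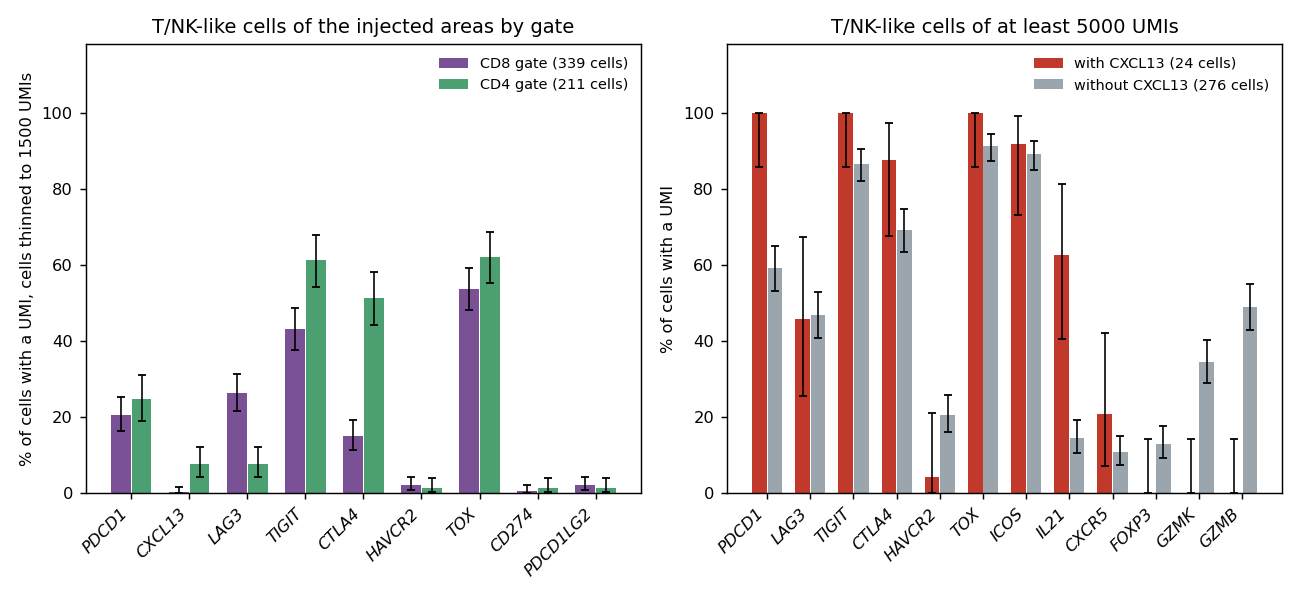
Share of T/NK-like cells of the 4 injected areas with a UMI of each gene (y axis, %): on the left by CD8 and CD4 gate after thinning to 1500 UMIs, on the right in unthinned cells of at least 5000 UMIs with and without CXCL13. Bars are shares and error bars are exact 95% binomial intervals for counting error; LAG3 is higher in the CD8 gate, CTLA4 in the CD4 gate, and PDCD1 was found in all 24 deep cells with CXCL13.

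T cells held most but not all CXCL13. Of 1806 UMIs in cells of the injected areas, 1297 (71.8%) were in T/NK-like cells, 435 (24.1%) in 11 myeloid-like cells, 68 (3.77%) in 1 plasma-like cell and 6 in 5 others. In the left mScarlet bleb 10 myeloid-like cells held 429 UMIs, and 1 of them, with 282 CXCL13 UMIs among 21162, held 91 C1QB UMIs and 0 UMIs of CD3 genes and PDCD1. None of the 11 myeloid-like cells held a CD3 or PDCD1 UMI, and 10 held C1QB. The plasma-like cell held 1494 JCHAIN UMIs beside 21 CD3 UMIs and 4 PDCD1 UMIs. The right mScarlet bleb had 1 such myeloid-like cell with 6 UMIs, so CXCL13 outside T cells is essentially a value of 1 library.

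The other genes of the T cell programme were tested between areas, with edgeR on summed UMIs of the T/NK-like cells of NHP2 (5707 genes, levels scaled by TMM, an edgeR normalization). Their lists were chosen with earlier results of these data known, so the p-values are no independent evidence. Between mScarlet blebs and uninjected areas 4 genes passed (0.0701%), and among the lists examined IL10, an anti-inflammatory cytokine gene, was raised: 247 and 183 CPM against 24.7 and 25.1 CPM (log2 fold change 3.09, SE 0.44, adjusted p = 0.0492). The right and left uninjected sums held only 86867 and 132348 UMIs of all genes, so the uninjected IL10 levels rest on a few UMIs. The call was lost without either uninjected library (adjusted p = 0.159 without the right and 0.524 without the left), without the right hRPGR bleb (0.0815) and with other size factors (0.0513). IL10 was the only one of 3 regulatory T cell genes tested to pass. Of 10 other co-receptor genes, 12 transcription factor genes, 5 helper genes, 9 cytotoxic genes, 5 naive T cell genes and 8 interferon-gamma pathway genes, 0 passed, with median log2 changes of 0.07, −0.06, 0.83, 0.65, 0.11 and −0.02 beside −0.01 over all genes tested. Other ligand genes had 2 members tested, and 0 passed. The 6 cycling genes had a median of 2.92 and were all positive, but 0 passed. Between mScarlet and hRPGR blebs 7 genes passed (0.123%), among them PRF1, the gene of the pore protein perforin, at 217 and 253 CPM against 80.2 and 80.7 CPM (log2 fold change 1.55, SE 0.23, adjusted p = 0.0255). The PRF1 call was lost without either uninjected library (0.0608 and 0.0570), the right hRPGR bleb (0.710) or the left mScarlet bleb (0.0639). CD8A was at 105 and 139 CPM in the hRPGR and 282 and 303 CPM in the mScarlet T/NK-like cells, and NKG7, a cytotoxic granule gene, at 799 and 913 CPM and 1149 and 1072 CPM; the part of the CD8 share in the PRF1 value was not tested. Between hRPGR blebs and uninjected areas 2 genes passed, neither of them from these lists; IL10 was at 183 and 174 CPM in the hRPGR blebs (log2 fold change 2.84, SE 0.47, adjusted p = 0.145).

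Across cell classes, PDCD1, CXCL13, LAG3, TIGIT and CTLA4 were highest in T/NK-like cells, while HAVCR2 and PDCD1LG2 were highest in myeloid-like cells. In means over the NHP2 libraries, TIGIT was at 617 CPM in T/NK-like cells and at most 4.17 CPM elsewhere, and CTLA4 at 262 CPM and at most 0.209 CPM. PDCD1 was at 162 CPM (23.0 to 269 over the 6 libraries) in T/NK-like and 13.1 CPM (5.85 to 19.4) in myeloid-like cells, and these ranges did not overlap. In myeloid-like cells without a CD3 UMI PDCD1 was still at 15.03 and 6.61 CPM in the uninjected areas, 15.1 and 8.90 CPM in the hRPGR blebs and 14.0 and 19.4 CPM in the mScarlet blebs. For PDCD1 in myeloid-like cells the difference between mScarlet blebs and uninjected areas did not pass the edgeR test (log2 fold change 0.79, SE 0.47, adjusted p = 0.494; 1.69 and 0.359 without the right uninjected library). HAVCR2, which microglia carry, was at 243 CPM (193 to 285) in myeloid-like and 17.1 CPM (0 to 34.5) in T/NK-like cells. Its myeloid-like level was 239 and 193 CPM in the uninjected areas, 254 and 285 CPM in the hRPGR blebs and 279 and 205 CPM in the mScarlet blebs, and these overlapped (mScarlet against uninjected, log2 fold change 0.20, SE 0.27, adjusted p = 0.805).

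TOX was also a gene of retinal neurons. Beside 593 CPM (380 to 722) in T/NK-like cells, its mean over the NHP2 libraries was 292 CPM (282 to 318) in bipolar-like, 273 CPM (244 to 310) in ganglion-like, 223 CPM (134 to 304) in amacrine-like and 136 CPM (110 to 178) in Müller glia-like cells, and 1.21 CPM in rod-like cells. The ranges of T/NK-like and bipolar-like cells did not overlap, while those of bipolar-like, ganglion-like and amacrine-like cells did. After thinning, 24.8 to 30.04% of bipolar-like cells of NHP2 held TOX. Its level in bipolar-like cells hardly moved between areas (291 and 287 CPM uninjected, 318 and 286 CPM hRPGR, 289 and 282 CPM mScarlet), and the mScarlet blebs differed from the uninjected areas by −0.01 on the log2 scale (SE 0.10, adjusted p = 0.976; 0.0091 without the right uninjected library). In Müller glia-like cells the change was −0.29 (SE 0.20, adjusted p = 0.659). LAG3 UMIs were also counted in neurons, with means of 2.66 CPM in bipolar-like, 2.10 CPM in cone-like and 1.95 CPM in rod-like cells beside 0.459 to 1.24 CPM in free RNA of the NHP2 libraries, and the difference between these areas did not pass in bipolar-like (log2 fold change −0.05, SE 0.38, adjusted p = 0.98; 0.075 without the right uninjected library) or rod-like cells (−0.03, SE 0.35, adjusted p = 0.973).

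**Figure D3:**
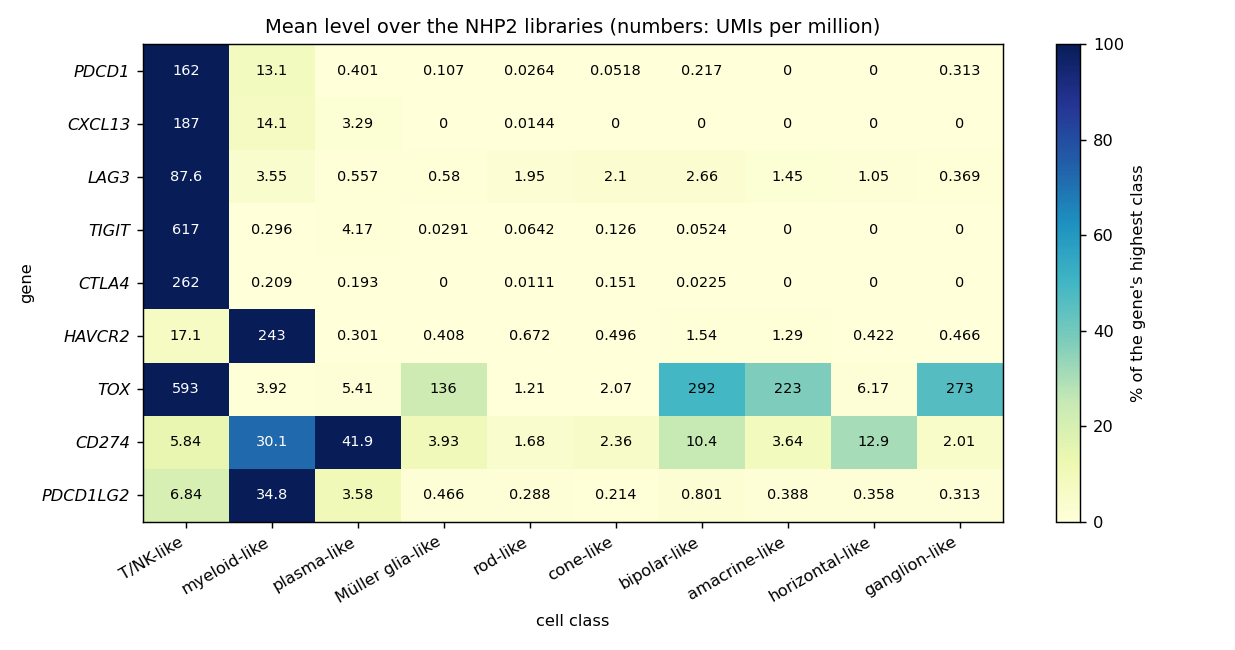
Mean level of the 9 genes (rows) over the NHP2 libraries in 10 cell classes (columns); the number in each cell is the mean in CPM, and the colour is that mean as a percentage of the gene's highest class. TIGIT and CTLA4 are above 5 CPM in T/NK-like cells alone, HAVCR2 and PDCD1LG2 peak in myeloid-like cells, and TOX is also found in bipolar-like, ganglion-like, amacrine-like and Müller glia-like cells.

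The PD-1 ligand genes lie side by side on chromosome 15 of the Mmul_10 build, both on the minus strand, CD274 at 78309994 to 78330073 and PDCD1LG2 at 78211661 to 78271976, with 38017 bases and 0 annotated genes between them. The 250 bases before the annotated start of each are shown because these neighbouring genes differed in how their levels ran across areas and classes. They were read from the Mmul_10 reference in the direction of transcription, from chr15:78330074-78330323 (36.4% GC) and chr15:78271977-78272226 (40.4% GC). Capitals mark 2 overlapping matches, on the opposite strand and 44 to 29 bases before the start, to GAAA, any 2 bases and GAAA again, the core of an interferon-stimulated response element.
CD274: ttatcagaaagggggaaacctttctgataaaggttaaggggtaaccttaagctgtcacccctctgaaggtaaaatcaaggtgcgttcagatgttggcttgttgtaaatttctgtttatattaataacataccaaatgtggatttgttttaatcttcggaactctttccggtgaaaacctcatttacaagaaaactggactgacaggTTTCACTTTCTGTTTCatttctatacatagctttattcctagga
PDCD1LG2: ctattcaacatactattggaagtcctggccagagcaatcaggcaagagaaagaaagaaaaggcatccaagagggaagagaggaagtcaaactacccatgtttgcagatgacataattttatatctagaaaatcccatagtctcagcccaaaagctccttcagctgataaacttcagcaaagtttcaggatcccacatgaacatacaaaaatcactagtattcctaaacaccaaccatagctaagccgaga

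These letters, searched on both strands, were found in the window of 1 of the 9 genes and in 629 of 20781 annotated promoters of this length (3.03%). TTCNNNGAA, the core of a gamma-activated site, was found in the windows of 0 of the 9 genes and in 1243 promoters (5.98%). A match is a description of the letters and not of a bound factor.

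CD274 was lowest in the uninjected areas and highest in the mScarlet blebs in bipolar-like cells, the neurons that carry photoreceptor signals inward. Its level was 2.21 and 1.79 CPM in the uninjected areas (12 and 10 UMIs), 3.92 and 5.80 CPM in the hRPGR blebs (15 and 39 UMIs) and 18.5 and 30.1 CPM in the mScarlet blebs (105 and 223 UMIs), and 1.09 and 0.754 CPM in NHP1. The 3 areas of NHP2 did not overlap. The fitted log2 fold change was 3.6 between mScarlet blebs and uninjected areas and ran from 3.22 to 3.87 when 1 library was left out. It was 2.27 between mScarlet and hRPGR blebs (1.90 without the left mScarlet bleb) and 1.33 between hRPGR blebs and uninjected areas.

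After thinning, 0.376 and 0% of bipolar-like cells of the uninjected areas, 0.412 and 0.686% of the hRPGR blebs and 1.94 and 4.20% of the mScarlet blebs held CD274; without thinning these were 1.25 and 0.908%, 2.47 and 2.52%, and 7.77 and 10.96%. Of 11 bipolar-like clusters, 8 had at least 20 cells in each NHP2 library, and in 7 of these 8 both mScarlet blebs were above both uninjected areas, as they were with the left uninjected area alone. Their mScarlet means ran from 6.16 to 52.7 CPM and their uninjected means from 0 to 6.89 CPM. The lowest mScarlet mean rests on 6 and 4 UMIs, against 1 and 2 UMIs in the uninjected areas. The clusters are parts of the same libraries and CD274 was picked with its levels known, so their agreement is no further support. The share of all genes with this order was not counted. A cluster left out for its 19 cells in the right hRPGR bleb held 0 CD274 UMIs in every NHP2 library, with 50 and 49 mScarlet cells. The other clusters left out were at 0 CPM in the uninjected areas and above 0 in both mScarlet blebs. The summed level of the 11 myeloid markers in bipolar-like cells moved in the same direction (15.6 and 8.07 CPM uninjected, 31.6 and 15.8 CPM hRPGR, 39.5 and 58.3 CPM mScarlet). In myeloid-like cells of the mScarlet blebs those markers were at 32112 and 34471 CPM beside 42.7 and 58.4 CPM of CD274. The part of myeloid RNA in the bipolar-like value was not tested. The 16 T/NK markers in bipolar-like cells were at 26.9 to 38.6 CPM. In barcodes of 100 to 1000 UMIs, taken as free RNA, CD274 was at 0.153 and 0.175 CPM in the uninjected areas, 0.780 and 0.398 CPM in the hRPGR blebs and 1.82 and 3.16 CPM in the mScarlet blebs, below the bipolar-like level of the same library in each.

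In Müller glia-like and rod-like cells CD274 had the same order at lower levels. Its free-RNA levels, given above, ran in the same direction and were above the rod-like levels of both uninjected areas and the left hRPGR bleb, and below those of the right hRPGR and both mScarlet blebs; the part of free RNA was not tested. In Müller glia-like cells, the main glia of the retina, it was at 1.13 and 0.698 CPM in the uninjected areas, 2.81 and 1.45 CPM in the hRPGR blebs and 6.52 and 10.98 CPM in the mScarlet blebs. The log2 fold change between mScarlet blebs and uninjected areas was 3.23, and 3.56 without the right uninjected library. In rod-like cells it was at 0.0271 and 0.101 CPM in the uninjected areas (1 and 4 UMIs), 1.2 and 0.190 CPM in the hRPGR blebs and 3.99 and 4.602 CPM in the mScarlet blebs (125 and 160 UMIs). The log2 fold change was 5.90, and 5.39 without the right uninjected library, and rests on 5 UMIs of the uninjected areas. The summed myeloid markers in rod-like cells were at 6.44 and 8.27 CPM in the uninjected areas, 85.8 and 12.8 CPM in the hRPGR blebs and 19.8 and 26.6 CPM in the mScarlet blebs, and their part in the CD274 value was not tested.

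In myeloid-like cells the level of CD274 was 12.7 and 15.6 CPM in the uninjected areas (7 and 8 UMIs in 83 and 80 cells), 40.6 and 10.8 CPM in the hRPGR blebs and 42.7 and 58.4 CPM in the mScarlet blebs (190 and 301 UMIs in 504 and 444 cells). The mScarlet blebs were above the uninjected areas, while the right hRPGR bleb lay just under the mScarlet blebs and the left one under both uninjected areas. The log2 fold change between mScarlet blebs and uninjected areas was 1.88. PDCD1LG2 in these cells was at 20.0 and 41.0 CPM in the uninjected areas, 27.9 and 32.4 CPM in the hRPGR blebs and 42.1 and 45.8 CPM in the mScarlet blebs. The left uninjected area lay just under the mScarlet blebs, and the log2 fold change was 0.58 (0.22 without the right uninjected library). Its mean over the NHP2 libraries was 34.8 CPM in myeloid-like cells against at most 6.84 CPM in the other classes with values in all 6 libraries. Plasma-like cells carried CD274 at 25.8 CPM in the right hRPGR bleb and 59.2 and 40.6 CPM in the mScarlet blebs, from 110, 81 and 247 cells. The other libraries held 4 or fewer such cells, among them 1 and 3 in the right and left uninjected areas at 110 and 102 CPM (2 and 8 UMIs).

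**Figure D4:**
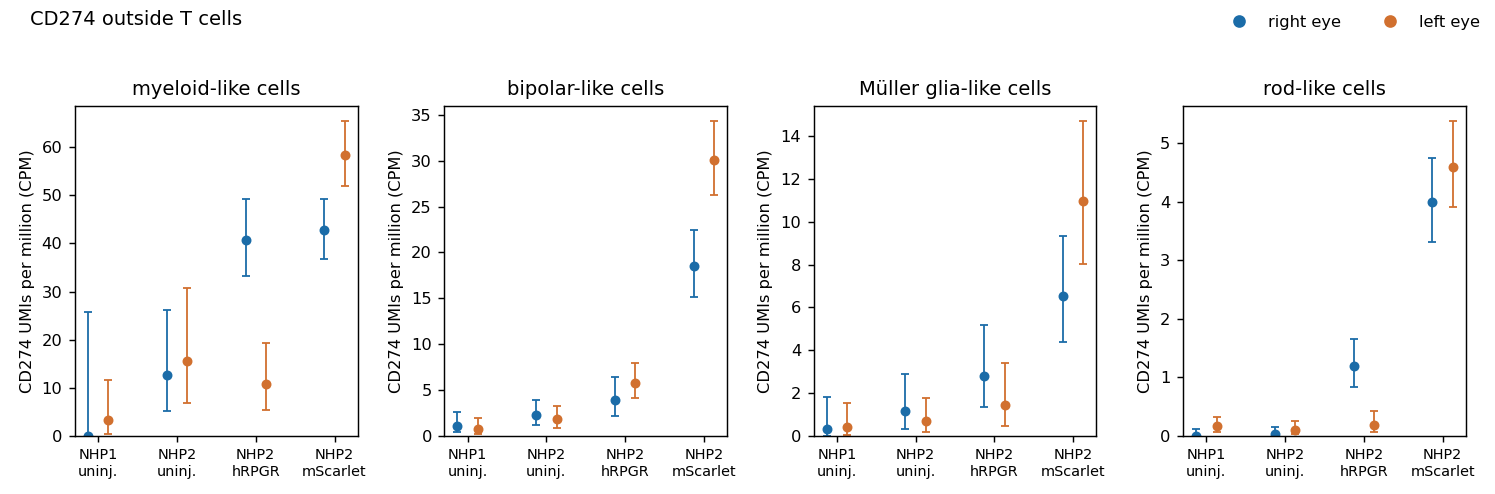
CD274 level in CPM (y axis) in myeloid-like, bipolar-like, Müller glia-like and rod-like cells of all 8 libraries by animal and area (x axis); each point is 1 library, coloured by eye, with its exact 95% Poisson interval for counting error. In bipolar-like cells the mScarlet blebs (18.5 and 30.1 CPM) sit above all other libraries, and the y axes differ between panels.

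Genes of the interferon-gamma pathway were examined beside CD274 because interferon-gamma is a known inducer of PD-L1. The paper reports raised B2M and a type I interferon response in rods of the mScarlet-treated area. In its vitreous cytokine panel, interferon-gamma protein stayed at minimal detectable levels. Whether any interferon acted on the cells analysed here was not tested. This list was chosen with earlier results of these data known, so its p-values are no independent evidence. In bipolar-like cells 4 of 9 tested were raised in the mScarlet blebs against the uninjected areas, where 0.846% of all 13010 genes passed, with a median log2 change of 1.03 beside −0.00 over all genes tested. IRF1, an interferon-induced transcription factor gene, was at 47.9 and 56.2 CPM against 4.28 and 6.42 CPM (log2 fold change 3.28, SE 0.22, adjusted p = 7.64e-05). NLRC5, the activator of MHC class I genes, was at 89.8 and 113 CPM against 11.53 and 4.64 CPM (3.66, SE 0.31, adjusted p = 0.000251). B2M, the light chain of MHC class I, was at 672 and 896 CPM against 137 and 51.7 CPM (3.06, SE 0.40, adjusted p = 0.00472; 0.0518 without the left mScarlet bleb). CXCL10, an interferon-induced chemokine gene, was at 2.51 and 9.21 CPM against 0 and 0 (adjusted p = 0.0349), and was lost without either uninjected library (0.136 and 0.147) or the left mScarlet bleb (0.300).

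The level of these genes in free RNA was also higher in the mScarlet blebs than in the uninjected areas. In the barcodes of 100 to 1000 UMIs, without TMM scaling, CXCL10 was at 14.9 and 82.0 CPM in the right and left mScarlet blebs, above its bipolar-like level, and at 1.11 and 1.40 CPM in the uninjected areas. IRF1 was there at 27.4 and 49.8 CPM in the mScarlet blebs and 5.93 and 10.8 CPM in the uninjected areas, below its bipolar-like levels in the former and above them in the latter. NLRC5 was at 39.8 and 45.8 CPM and B2M at 293 and 651 CPM in the mScarlet blebs, below their bipolar-like levels, and in the uninjected areas NLRC5 was at 1.45 and 1.28 CPM and B2M at 66.2 and 65.8 CPM. The part of free RNA in the bipolar-like changes was not tested, and the bipolar-like CXCL10 value is below this background. Without the right uninjected library IRF1, NLRC5 and B2M passed in bipolar-like cells (log2 fold changes 3.02, 4.45 and 3.92; adjusted p = 0.000622, 0.000264 and 0.000849).

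IRF1 and NLRC5 were also raised in bipolar-like cells of the mScarlet blebs against the hRPGR blebs, where they were at 22.1 and 15.6 CPM and at 34.3 and 21.6 CPM (log2 fold changes 1.503, SE 0.19, adjusted p = 0.013, and 1.90, SE 0.26, adjusted p = 0.0289), a comparison in which 0.192% of all genes passed. Both calls were lost without the left mScarlet bleb (0.267 and 0.341), and that of NLRC5 also without the right one (0.0594) and with DESeq2 (0.228). No pathway gene passed between hRPGR blebs and uninjected areas in bipolar-like cells, a comparison in which almost no gene of any kind passed. The levels of CD274, IRF1, NLRC5 and B2M in the hRPGR blebs lay between those of the uninjected areas and the mScarlet blebs, with no overlap. CD274 was picked with its levels known, and the others are shown because they passed between mScarlet blebs and uninjected areas. Part of this order was thus given in advance, and the share of all genes with the same order was not counted. In free RNA of the right and left hRPGR blebs IRF1 was at 35.2 and 12.3 CPM, NLRC5 at 20.5 and 6.37 CPM and B2M at 539 and 124 CPM. In the right hRPGR bleb the free-RNA levels of IRF1 and B2M were thus above the bipolar-like levels (22.1 and 419 CPM) and above the free RNA of the right mScarlet bleb.

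**Figure D5:**
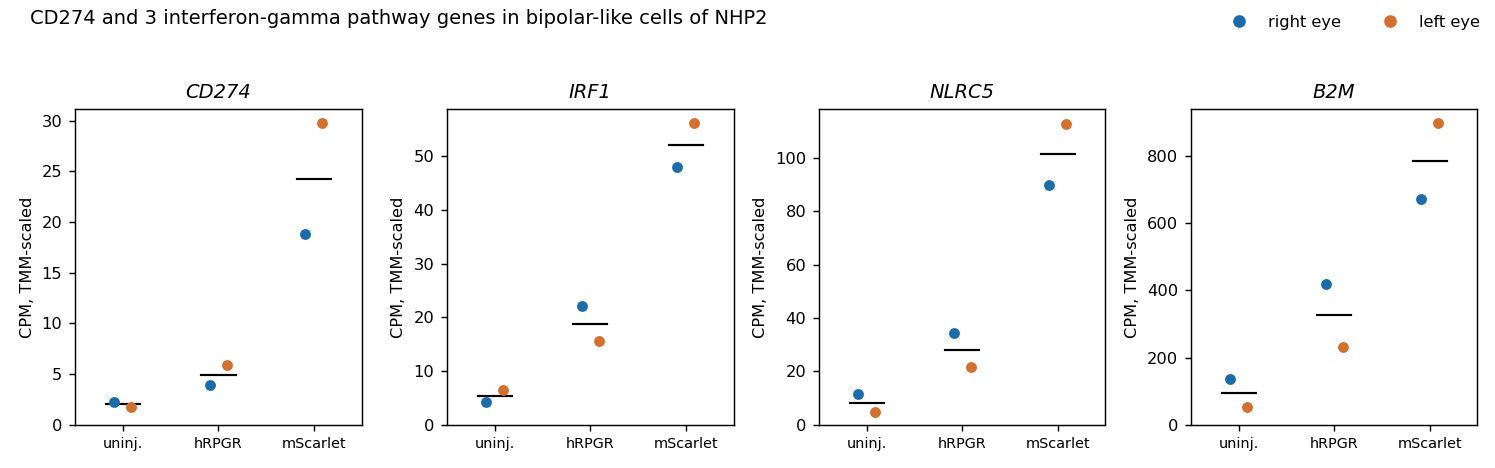
Level of CD274, IRF1, NLRC5 and B2M in bipolar-like cells of NHP2 (y axis, CPM after TMM scaling) by area (x axis); each point is 1 library, coloured by eye, and the line is the mean of the 2 libraries. For all 4 genes both mScarlet blebs are above both hRPGR blebs, which are above both uninjected areas. The genes were picked from these data, and the share of all genes with this order was not counted.

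In the other classes fewer pathway genes passed. In Müller glia-like cells 2 of 11 were raised in the mScarlet blebs (0.471% of all 12529 genes passed): IRF1 at 107 and 169 CPM against 24.0 and 20.4 CPM (log2 fold change 2.64, SE 0.27, adjusted p = 0.0158), and CXCL10 at 993 and 728 CPM (4517 and 3010 UMIs) against 0 UMIs in both uninjected areas (adjusted p = 0.000753). The IRF1 call was lost without the right or left hRPGR bleb (0.0582 and 0.0648) or the left mScarlet bleb (0.0721). CXCL10 was also raised in Müller glia-like cells of the hRPGR blebs, at 189 and 130 CPM (adjusted p = 0.00572; 0.0526 without the right hRPGR bleb), where 0.0239% of all genes passed. In rod-like cells 1 of 10 was raised (0.271% of all 14762 genes passed), B2M at 920 and 1066 CPM against 33.5 and 30.7 CPM (log2 fold change 4.95, SE 0.49, adjusted p = 0.0321), and it was lost without the left uninjected (0.183) or left mScarlet library (0.136). The Müller glia-like levels of IRF1 and CXCL10 and the rod-like level of B2M in the mScarlet blebs were above those of free RNA in the same library. In contrast to these CXCL10 levels, the paper reports no significant cytokine expression in Müller glia. In myeloid-like cells 0 of 12 passed, where 0.371% of all 10781 genes did, with a median log2 change of 0.74. Of ligand genes of other checkpoints, 0 of 7 tested passed in myeloid-like (median log2 change 0.24), 0 of 5 in Müller glia-like (0.27), 0 of 4 in rod-like (0.01) and 0 of 3 in bipolar-like cells (0.00).

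The genes whose levels ran most like each member were ranked by Pearson correlation of log2(CPM + 1) over 79 sums of a class in a library, among 16056 genes; these sums share libraries and depth, and the values are a description. For TIGIT they were led by IL2RB (r = 0.991), LCK (0.989) and CTLA4 (0.987), for CTLA4 by SH2D1A (0.997), and for PDCD1 by BATF (0.966), all lymphocyte genes. Among named genes LAG3 ran most like GZMA (0.855), CST7 (0.854) and GZMB (0.851), genes of cytotoxic lymphocytes, and CXCL13 like the cell division gene MKI67 (0.853). HAVCR2 ran like TNFAIP8L2 (0.948), TNF (0.943), and the microglial genes TYROBP (0.934) and CX3CR1 (0.928), and PDCD1LG2 like CCRL2 (0.931). For TOX an unnamed feature (0.876) stood before CDC25B (0.850), and for LAG3 one (0.857) stood before GZMA. CD274 had the lowest best value of the 9, an unnamed feature at 0.745, followed by APOL6 (0.710) and the interferon-induced GBP3 (0.709).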

How the data were processed

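The deposited files hold raw UMI counts per gene and barcode, 1 unfiltered matrix per library; per the submitters' processing notes they were made with Cell Ranger 8.0.1 on Mmul_10, to which the study's methods add the transgene sequences. The authors corrected free RNA, removed doublets, integrated libraries and tested pooled counts with DESeq2; here the deposited counts were used without correction or integration, and 0 columns of unknown sample were met. The members and the gene lists were chosen with earlier results of these data known. A barcode counted as a cell from 1500 UMIs and 300 genes upward if no more than 20% of its UMIs were mitochondrial (91796 barcodes). The automatic threshold of Scrublet, a doublet caller, marked 0 to 0.083% of them, so a fixed rate of 0.8% per 1000 cells with the highest scores was removed instead (8604 cells), leaving 83192.

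Cells were clustered in scanpy 1.11.5 (3000 variable genes without the 9 members, 40 components, 15 neighbours, leidenalg 0.10.2 at resolution 2) under Python 3.11.15. Of 67 clusters 53 were named from 107 markers of 14 classes, and 14 stayed unnamed. For shares, each cell was thinned to 1500 UMIs. Intervals are exact at 95% (Clopper-Pearson for shares, Poisson for CPM) and cover counting error only. A count of 0 was read against a floor of 3 UMIs.

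UMIs were summed per class and library, and the 6 NHP2 libraries were fitted with edgeR 4.0.16 (R 4.3.3, quasi-likelihood test, TMM, filterByExpr), with Benjamini-Hochberg adjustment over all genes tested and a threshold of 0.05; the scripts were tested on simulated counts. DESeq2 1.42.0, other size factors, no filter, the eye as a block and leaving out each library were the alternatives. The fits held the ligand genes too, but their p-values and SEs are not given, since their levels were known when they were chosen. For other genes the SE was derived from the log2 fold change and the F statistic of the test. Eyes were not used as pairs in the main fit: deviations of same-eye libraries from their group means correlated at −0.40 to 0.24. Named genes were the 9 members, list genes that passed (at most 5 a list and fit), the leading genes of cells with PDCD1 or CXCL13 (at least 30 UMIs) and the 5 genes most like each member (at least 200 UMIs), where unnamed features are given by value alone.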

Additional observations from a re-analysis of the deposited data

Results flagged for a closer look

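Barcodes of 100 to 1000 UMIs, which no test between areas used, were screened for members with at least 10 UMIs in a bleb. Of the 9 genes, 7 had a lower counting bound in at least 1 bleb above the values of both uninjected areas of NHP2. The share of all genes passing this screen was not counted, so nothing is read from this count. The counting error of the uninjected values was not taken in. For TIGIT (1 UMI uninjected) and HAVCR2 in the right mScarlet bleb that error is large. CXCL13 was at 1.34 CPM in the left mScarlet bleb (28 UMIs; 0 in the uninjected areas). TIGIT was at 0.409 CPM in the right mScarlet bleb and CTLA4 at 0.36 CPM in the right hRPGR bleb (11 and 12 UMIs). HAVCR2 was at 3.24 CPM in the right hRPGR bleb, 1.12 CPM in the right and 1.91 CPM in the left mScarlet bleb, against at most 0.669 CPM uninjected. TOX was at 20.8 CPM in the left mScarlet bleb, against at most 14.99 CPM in NHP2 and 19.3 CPM in the left library of NHP1. CD274 was at 0.780 CPM in the right hRPGR bleb and 1.82 and 3.16 CPM in the right and left mScarlet blebs, against at most 0.175 CPM. PDCD1LG2 was at 0.450 CPM in the right hRPGR bleb and 0.908 CPM in the left mScarlet bleb, against at most 0.146 CPM. These levels are those of pooled barcodes, with a single library per eye and area.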

How the results depend on the processing

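Counts of genes passing edgeR are given as mScarlet against uninjected, hRPGR against uninjected and mScarlet against hRPGR, with 4, 2 and 7 in T/NK-like, 40, 0 and 0 in myeloid-like, 59, 3 and 4 in Müller glia-like, 40, 0 and 0 in rod-like and 110, 1 and 25 in bipolar-like cells. At an unadjusted p under 0.05 the counts of 0 were 674 and 962 in myeloid-like and 602 and 656 in rod-like cells. With no filter beyond 1 UMI the counts were 189, 48 and 105 in T/NK-like, 772, 188 and 282 in myeloid-like, 463, 38 and 122 in Müller glia-like, 1005, 114 and 108 in rod-like and 561, 106 and 307 in bipolar-like cells. DESeq2 gave 4 for hRPGR against uninjected in T/NK-like cells, 255, 8 and 27 in myeloid-like, 283, 22 and 59 in Müller glia-like, 1347, 74 and 62 in rod-like cells and 12 for hRPGR against uninjected in bipolar-like cells. DESeq2 size factors within edgeR gave 1 for mScarlet against uninjected in T/NK-like cells. Leaving out each library in turn gave 0 to 52, 0 to 21 and 1 to 35 in T/NK-like, 0 to 60, 0 to 3 and 0 to 16 in myeloid-like, 4 to 520, 0 to 40 and 0 to 87 in Müller glia-like, 0 to 1084, 0 to 42 and 0 to 15 in rod-like and 32 to 195, 0 to 46 and 1 to 40 in bipolar-like cells. The causes were not tested.

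With the eye as a replicate block the counts moved to 7 and 5 (first and second comparison) in T/NK-like, 85, 3 and 1 in myeloid-like, 18 and 1 (first and second) in Müller glia-like cells and 6 (second) in bipolar-like cells; the block changed the call of 0 of 35 named gene results. Same-eye libraries share an eye and, in the left eye, adalimumab.

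The mean share of T/NK-like cells of the mScarlet blebs with PDCD1, 23.6% at 1500 UMIs, was 35.9% at 3000 UMIs and 46.5% without thinning. Of the log2 changes, 7 changed sign when a library was left out: CD274 in myeloid-like cells, hRPGR against uninjected (−0.37 to 1.42), and for mScarlet against uninjected HAVCR2 in myeloid-like (−0.050 to 0.45), LAG3 in bipolar-like (−0.21 to 0.075) and rod-like (−0.32 to 0.40), PDCD1LG2 in rod-like (−0.24 to 0.65) and TOX in bipolar-like (−0.059 to 0.022) and rod-like cells (−0.63 to 0.68). Levels in T/NK-like cells of uninjected areas rest on 24 and 34 cells, each group is 2 eyes of 1 animal, and free RNA was not removed.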

Other observations

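CD274 was also counted in classes that were not fitted. In cone-like cells it was at 0.160 and 0.172 CPM in the right and left uninjected areas, 0.804 and 0.258 CPM in the hRPGR blebs and 3.33 and 9.46 CPM in the mScarlet blebs. In horizontal-like cells it was at 1.71 and 0 CPM, 0 and 33.6 CPM, and 20.8 and 21.1 CPM in the same order, so that the left hRPGR bleb was the highest. In amacrine-like cells it was at 0 and 0.430 CPM, 2.84 and 1.86 CPM, and 13.2 and 3.52 CPM. In ganglion-like cells, at 2.54 and 1.13 CPM, 1.95 and 0.976 CPM, and 0.922 and 4.54 CPM, the areas overlapped. Vascular-like cells were few: 16 CD274 UMIs in 12 cells of the left mScarlet bleb gave 113 CPM, 2 UMIs in 6 cells of the right uninjected area gave 41.9 CPM, and the left uninjected area held 0 UMIs in 20 cells.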
